A study of Mus musculus with 8 samples.

Results

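Mouse embryo cells with transcripts of Hand1, Bmp4 and Foxf1 were described here in chimeras carrying Tet triple-knockout (Tet-TKO) cells. A cell was kept when it had at least 1500 unique molecular identifiers (UMIs, 1 per captured transcript), at most 30% of them in mitochondrial genes and at most 35% in ribosomal protein genes. Members were selected on their own counts: at least 1 UMI each of Hand1, Bmp4 and Foxf1, and 0 UMIs of Tbx4, Lum, Tdo2 and Osr1. By this rule 3385 of 49838 kept cells were members, which is 6.79%, and 2071 of them came from E8.5 embryos.

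Hand1 and Foxf1 are transcription factors of the lateral and extraembryonic mesoderm, and Bmp4 is a secreted growth factor that the same tissue makes. Extraembryonic mesoderm leaves the posterior primitive streak at gastrulation and lines the amnion, the chorion and the yolk sac, and it builds the allantois, the bud that later becomes the umbilical vessels. TET enzymes oxidise methylated cytosine, a step by which methylation can be removed from regulatory DNA. The 4 genes that had to be absent mark neighbouring tissues: Tbx4 is the allantois factor, and Lum, Tdo2 and Osr1 are read in mesothelium and mesenchyme.

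The question was how cells without TET enzymes develop beside normal cells of the same embryo. Tet-TKO ES cells of 1 line, on a mixed C57BL/6J-129Sv background with an H2B-tdTomato reporter, had been injected into C57BL/6J blastocysts that were carried by CD1 females. Pooled embryos were sorted into tdTomato-positive cells, here Tet-TKO, and tdTomato-negative cells, here WT host, and the E8.5 embryos gave 4 Tet-TKO libraries against 2 from the host, the E7.5 embryos 1 per genotype. Genotype, strain background and origin from injected ES cells went together in every library and cannot be told apart. Injected ES cells give rise to few cells of the extraembryonic endoderm and the trophoblast, so the 2 sorted fractions need not cover the same tissues. The labels do not say whether libraries of 1 genotype came from separate embryo pools, so p-values measure the spread between these libraries.

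Deposited libraries held 65601218 to 136982886 UMIs, and the kept cells of a library had a median of 12178 to 68931 UMIs. Tet-TKO libraries 3 and 4 at E8.5 were the smallest and the deepest per cell, and their members differed from those of Tet-TKO libraries 1 and 2 by a chi-square per degree of freedom of 21.2 to 24.3, against 4.47 within the first pair, 4.10 within the second and 3.46 between the WT host libraries. None of these 7 pairs agreed within sampling noise, and 2 libraries shared at most 28 kept barcodes. A tdTomato UMI was found in 55.5 to 93.6% of the E8.5 Tet-TKO members and in 0.388 and 0.474% of the WT host members. Tet1 was read at 9.31, 10.7, 22.2 and 17.1 CPM (UMIs of a gene scaled to a fixed total of all UMIs, 1e+06) in Tet-TKO members and at 24.1 and 21.2 CPM in WT host members, a difference that did not pass the test (adjusted p = 0.384), and the 3' reads do not show whether the deleted part was present.

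The values that chose the members are given as a description. Of the 3385 members, 1583 had exactly 1 UMI of at least 1 of the 3 genes, and 84 had 1 UMI of each. Just outside the rule, 6391 cells had all 3 genes and also a UMI of Tbx4, Lum, Tdo2 or Osr1, and 1651 of these were left out by a single UMI. A further 922 cells lacked only Hand1, 1243 lacked only Bmp4 and 2155 lacked only Foxf1. In the E8.5 members Hand1 stood at 404, 343, 188 and 223 CPM in the 4 Tet-TKO libraries and at 511 and 545 CPM in the 2 WT host libraries. Bmp4 stood at 193, 208, 156 and 154 against 202 and 215 CPM, and Foxf1 at 241, 254, 155 and 128 against 213 and 224 CPM. Tet-TKO libraries 3 and 4 were the lowest for all 3 genes. These levels come from sums over cells, in which fewer strongly expressing cells and less RNA per cell are mixed. The median Hand1 count of a member was 6, 3, 4 and 9 UMIs in the Tet-TKO and 7 and 6 UMIs in the WT host libraries, at unequal depths. Outside cluster 7, described below, Hand1 stood at 404, 341, 188 and 223 CPM against 405 and 404 CPM. How far each part contributed was not tested.

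Msx2, a homeobox gene downstream of BMP signalling that the rule did not use, served as a check of the label. A UMI of Msx2 was present in 60.7 to 82.5% of the members of a library. Among Sox2-positive cells of the same libraries (at least 2 UMIs of Sox2 and 0 of Foxf1), which should lack it, the share was 10.4 to 19.6%, at a similar median depth, a contrast partly set by the absence of Foxf1. Msx2 did not set members apart from the cells most like them: it stood at 102 ± 24.7 CPM (SD, n = 6) in E8.5 members, at 92.6 ± 9.86 CPM in cells with the 3 genes and Tbx4 (log2 fold change 0.10, edgeR adjusted p = 0.352) and at 72.4 ± 15.5 CPM in cells with the 3 genes and Lum, Tdo2 or Osr1 but no Tbx4 (0.51, adjusted p = 0.00112, below the fold required for a call). Msx2 stood at 140, 99.03, 65.1 and 90.0 CPM in Tet-TKO members and at 109 and 110 CPM in WT host members (log2 fold change -0.14, SE 0.30, adjusted p = 0.869).

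A larger share of the Tet-TKO cells met the rule, but the test could not separate the genotypes. Members made up 10.3% of kept cells in Tet-TKO library 1, 7.48% in library 2, 5.05% in library 3 and 4.66% in library 4. In the WT host libraries the share was 3.12% and 2.34%. The groups did not overlap, with means of 6.87% ± 2.60 (SD, n = 4) and 2.73% ± 0.559 (SD, n = 2), and the two-sided exact permutation test of the difference of 4.14 percentage points gave p = 0.133, where 4 libraries against 2 allow no p below 0.0667. At E7.5, with 1 library of each genotype and no test, 16.5% of Tet-TKO cells (95% exact binomial interval 15.6 to 17.5) and 5.64% of WT host cells (5.12 to 6.203) were members, where the intervals cover counting error only. With every cell thinned to 10000 UMIs the lowest Tet-TKO library had 3.54% and the highest WT host library 3.39%. The difference was 2.37 points with thinning to 5000 UMIs (exact permutation p = 0.133) and 2.35 points with at least 2 UMIs of each gene (p = 0.0667). Cells with over 1% of their UMIs in haemoglobin genes took up more of the WT host than of the Tet-TKO libraries. Without them 6771 of 8257 and 6580 of 9038 WT host cells remained, with member shares of 3.69 and 3.12%. The difference was then 3.6 points (exact permutation p = 0.133). Thinning to 10000 UMIs left out 125 to 2584 shallower cells of an E8.5 Tet-TKO library and 1671 and 2132 of the WT host libraries.

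Neighbouring cells also made up larger shares of the Tet-TKO libraries. All cells with Hand1, Bmp4 and Foxf1, whatever their Tbx4, Lum, Tdo2 and Osr1, made up 24.7 to 34.2% of Tet-TKO and 9.06 and 12.8% of WT host cells at E8.5, a difference of 16.8 points (exact permutation p = 0.0667, the smallest the design allows). Those with Tbx4 made up 8.53 to 14.2% against 6.53 and 3.56%, and those with Lum, Tdo2 or Osr1 and no Tbx4 made up 7.08 to 13.4% against 3.12 and 3.16%. Among the cells with all 3 genes, members were 30.2, 30.3, 19.8 and 17.5% in the Tet-TKO libraries and 24.5 and 25.8% in the WT host libraries, so that on this denominator the groups overlapped. These shares vary with depth, and the 2 lowest are from the deepest libraries. With cells thinned to 10000 UMIs they were 45.9, 37.5, 28.6 and 36.7% against 32.3 and 30.6%. Tet-TKO library 3 was then the only Tet-TKO library not above both WT host libraries.

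**Figure D1:**
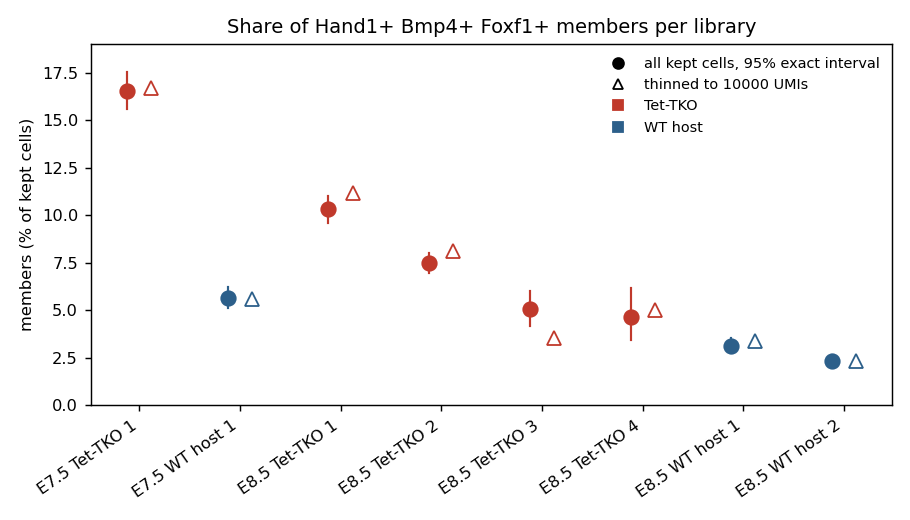
Share of kept cells that met the rule in each library, in percent. Circles are all kept cells with their 95% exact binomial interval, triangles are cells thinned to 10000 UMIs, red is Tet-TKO and blue is WT host. The 4 E8.5 Tet-TKO libraries lie between 4.66 and 10.3%, above the WT host libraries at 2.34 and 3.12%.

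The members were not of 1 kind. Clustering the 2071 E8.5 members among themselves, without the rule genes and without all 87 genes that the genotype tests called or that mark sex, blood or the reporter, gave 7 clusters of 101 to 445 cells. Clusters are a description and their leading genes were not tested. Cluster 1, with 445 cells, led with Itga4, an integrin subunit, at 66.5 CPM against 14.4 CPM in the other members, and with Hsd11b2 and Col3a1. Itga4 stands in the allantois list, but other genes of that list were higher in cluster 4, where Hoxa10 stood at 81.1 CPM against 23.15 CPM in cluster 1 and Vcam1 at 36.3 against 1.28 CPM. Cluster 2, with 431 cells, led with primitive streak and nascent mesoderm genes: T was at 135 CPM against 9.33 CPM, Fgf8 at 263 against 19.97 CPM and Mesp1 at 73.0 against 8.28 CPM. Cluster 3, with 361 cells, had no strong leading gene, its first being Prrx1, a mesenchymal homeobox gene, at 80.0 against 32.8 CPM.

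The other clusters were set apart by genes of several kinds. Cluster 4, with 294 cells, led with Nxf7, Ramp2 and Etv2, the last an inducer of blood and endothelium, at 92.0 CPM against 12.8 CPM. Plac1 and Phlda2, from the list of extraembryonic mesoderm markers, were also among its leading genes. Cluster 5, with 229 cells, was cardiomyocyte-like: 4 of its first 6 genes were the markers Ttn, Myl4, Myl7 and Tnnt2, and Myl7, an atrial myosin light chain, stood at 1157 CPM against 9.27 CPM. Cluster 6, with 210 cells, led with Afp, Rbp4 and the epithelial gene Epcam, the last at 344 CPM against 16.3 CPM. Of its cells, 77 and 72 came from Tet-TKO libraries 1 and 2, in which 0% of the members held a UMI of Afp. The lead of Afp therefore did not come from those cells. Cluster 7, with 101 cells, led with Tac2, with Tagln and Acta2 of contractile cells, and with Col1a1. It had the highest Hand1 and Bmp4 of the 7 clusters, at 1007.5 and 313 CPM, but not the highest Foxf1 or Msx2. Msx2 stood between 79.2 and 163 CPM in the 7 clusters. The label of extraembryonic mesoderm was therefore met only in part, and the cells are called members here.

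The clusters held different shares of the 2 genotypes. Cluster 7 held 47 of the 258 members of WT host library 1 (18.2%, 95% exact binomial interval 13.7 to 23.5) and 51 of the 211 members of library 2 (24.2%, 18.6 to 30.5). In Tet-TKO library 2 it held 3 of 714 members (0.420%, 0.0867 to 1.22), and in libraries 1, 3 and 4 it held 0 of 725, 0 of 116 and 0 of 47, where 3 counts, taken as the limit that a count of 0 allows, would be shares of 0.414, 2.59 and 6.38% (upper bounds of the exact interval 0.5075, 3.13 and 7.55%). Almost all of cluster 7 was thus WT host. Clusters 1 and 2 leaned the other way: cluster 1 made up 34.6, 18.8, 18.97 and 19.1% of Tet-TKO members against 8.53 and 3.32% of WT host members, and cluster 2 made up 28.3, 19.3, 24.1 and 29.8% against 10.9 and 8.53%. Shares of clusters 3 to 6 overlapped between the genotypes.

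How sharply cluster 7 separated the genotypes depended on the partition. The first partition made kept the genes called in the comparison of genotype effects between cell groups. It gave 6 clusters and placed all 101 cells in a cluster of 182, which held 2.35, 7.56, 0.862 and 4.26% of the Tet-TKO members and 20.5 and 26.1% of the WT host members. It was replaced, after it had been seen, because those genes led that cluster. With all called genes used, a cluster of 111 cells held 100 of the 101 and included 3 Tet-TKO cells, and at finer and coarser resolutions the matching clusters had 97 and 105 cells with 2 and 3 Tet-TKO cells.

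**Figure D2:**
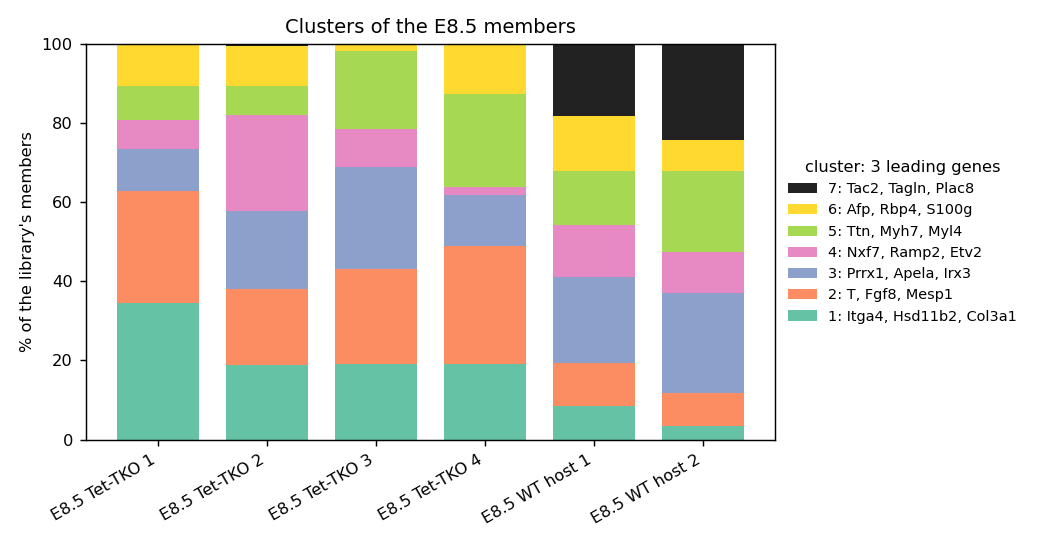
Percentage of the members of each E8.5 library in each of 7 clusters, which are named by number and 3 leading genes. Cluster 7 takes 18.2 and 24.2% of the 2 WT host libraries and at most 0.420% of a Tet-TKO library.

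Cells of cluster 7 had the highest levels of Hand1. In their 2 WT host libraries Hand1 stood at 1000.4 and 1033 CPM, against 404 and 341 CPM in the other members of Tet-TKO libraries 1 and 2, 188 and 223 CPM in libraries 3 and 4, and 405 and 404 CPM in the other WT host members. Bmp4 stood at 301 and 320 CPM inside the cluster and between 154 and 207 CPM outside it, while Foxf1, at 194 and 196 CPM, lay within the range of the other members. Acta2, smooth muscle actin, stood at 2544 and 2512 CPM inside and at 162 to 982 CPM outside. Krt8, a keratin of simple epithelia, stood at 2967 and 2499 CPM inside and at 490 to 879 CPM outside. Igfbp2, which binds insulin-like growth factors, stood at 1320.0 and 1368 CPM inside and at 74.5 to 255 CPM outside. None of the 3 overlapped, but the cells were clustered on their own expression. Acta2 and Igfbp2 were also among the leading genes of the cluster, so this is a description only.

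**Figure D3:**
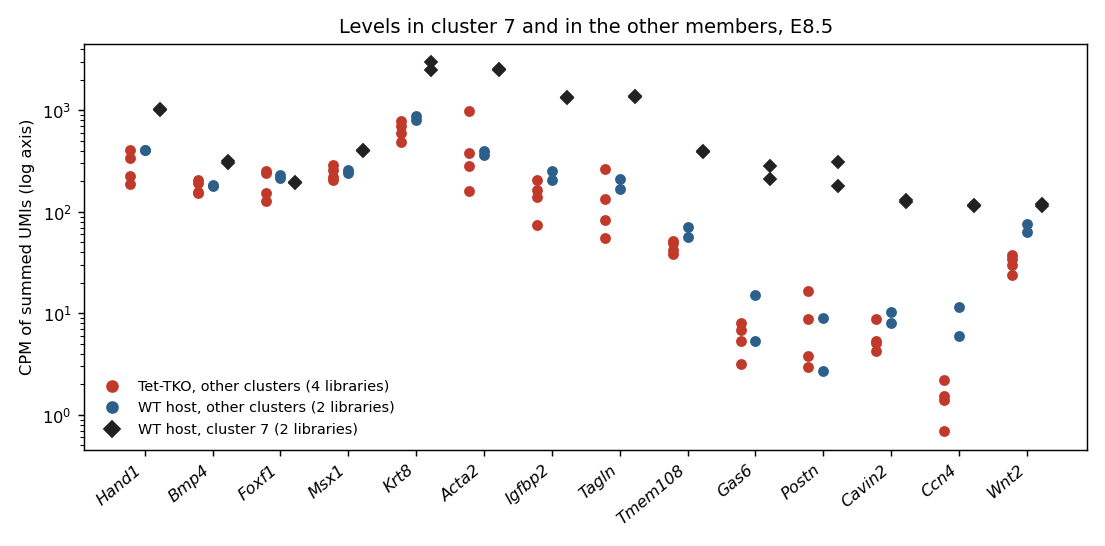
CPM of summed UMIs, on a log axis, in the WT host cells of cluster 7 (black diamonds) and in all other E8.5 members of the Tet-TKO (red) and WT host (blue) libraries, 1 point a library. Hand1 is at 1000.4 and 1033 CPM in cluster 7 and at or below 405 CPM elsewhere, and Gas6 is at 212 and 282 CPM in cluster 7 and at or below 15.3 CPM elsewhere.

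Across all E8.5 members, 42 of 11803 tested genes differed between the genotypes (edgeR's quasi-likelihood test, adjusted p below 0.01 and at least a log2 fold change of 1), which is 0.356% of the genes tested. Of these, 5 were higher (0.0424%) and 37 lower (0.313%) in Tet-TKO members, and DESeq2 called 48 higher and 162 lower. Of all 11803 genes tested, 1545 had an unadjusted p below 0.05 and 6132 lay above 0, which are the background for the counts over gene lists. The higher genes were few: Wdfy1, Snrpn, the reporter tdTomato and the pseudogenes Rps13-ps1 and Gm8730. Among those that were lower were genes of endoderm, genes such as Gas6 and Cavin2 that were high in cluster 7, and Asb4, H13 and Cyba. The count rested on few libraries: it was 3 without Tet-TKO library 3, 7 without WT host library 1, 9 without Tet-TKO library 1, 22 without WT host library 2, 26 without Tet-TKO library 2 and 33 without Tet-TKO library 4, and of the 42 genes Rps3a1 and Xist were called in all 6 of these fits, Xist having 0 to 14 UMIs in each Tet-TKO library, so that it passed the count filter through the WT host libraries and its call is no support.

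Snrpn, an imprinted gene for a splicing protein, stood at 239, 237, 296 and 285 CPM in Tet-TKO members and at 114 and 104 CPM in WT host members. Every Tet-TKO library was above both WT host libraries, which was a condition for naming it (log2 fold change 1.25, SE 0.13, adjusted p = 0.00543). Asb4, an imprinted gene for an ankyrin repeat protein, went the other way, at 11.2, 15.5, 12.7 and 11.1 CPM against 70.4 and 74.2 CPM (log2 fold change -2.51, SE 0.18, adjusted p = 0.00192). These were the called members of the 34 tested imprinted genes, 1 in each direction, and the median of the list was 0.09 against 0.02 for all genes tested. Of these 34 genes 12 had an unadjusted p below 0.05, and DESeq2 called 3. H13, called lower, was not in the list, so the count of directions holds for the listed genes only. Wdfy1, an endosomal adaptor, stood at 37.9, 34.3, 32.0 and 35.1 CPM against 10.8 and 6.42 CPM (log2 fold change 1.97, SE 0.24, adjusted p = 0.00954). Its call was lost when any 1 library was left out.

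The endoderm genes Amn, Cubn, Ttr, Apoa1, Apom, Trf, Fgb, Apob and Spink1 were called lower in Tet-TKO members. Apart from Spink1, at 0.316 to 6.48 CPM, their levels in the Tet-TKO libraries were at most 1.19 CPM, Amn, Cubn, Trf, Fgb and Apob having 0 to 2 UMIs in each, so that they passed the count filter through the WT host libraries. Neither their number nor their calls are support, and they are described by their levels. Ttr, the thyroxine carrier that yolk sac endoderm secretes, stood at 1.17, 0.919, 1.19 and 0.948 CPM in Tet-TKO members and at 471 and 72.9 CPM in WT host members. Apoa1, a lipoprotein of the same tissue, stood at 0.965, 1.02, 0.993 and 0.316 CPM against 318 and 39.5 CPM. The 7 markers of extraembryonic endoderm summed to 2.55 to 4.17 CPM in Tet-TKO members and to 1133 and 173 CPM in WT host members. In the 4 Tet-TKO libraries 3, 2, 1 and 2 of these markers were at 0. In Sox2-positive cells the same sum was 4.28 to 12.5 CPM in Tet-TKO and 155 to 214 CPM in WT host libraries. A few members carried them: 11 cells of WT host library 1 and 3 cells of library 2 held 96.0 and 88.9% of these UMIs. Without those cells 28 genes were called, 23 of them lower, and of the 9 endoderm genes 6 no longer passed the count filter, Apoa1 and Spink1 passed it without a call, and Ttr was still called, with the same limit as above.

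Blood markers moved with genotype too. The 9 erythroid markers, globin genes and their regulators, summed to 8.85 to 486 CPM in Tet-TKO members and to 2352 and 4917 CPM in WT host members. In Sox2-positive cells of the WT host libraries the sum was 2259 to 5879 CPM, so it was about as high in cells of another lineage. Leaving out members with over 1% of their UMIs in haemoglobin genes left 44 called genes. Cardiomyocyte markers differed more within the Tet-TKO group, at 111 to 1534 CPM, than between the genotypes, and without cardiac-rich cells 73 genes were called, 63 of them lower.

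Tmem108, Gas6 and Cavin2 were lower in Tet-TKO members. These genes were picked for description after their values were seen, since the rule for named genes reached only the endoderm genes and Mrap. Tmem108, a transmembrane protein, stood at 38.3, 52.5, 42.1 and 49.3 CPM against 117 and 142 CPM in WT host members (log2 fold change -1.52, SE 0.16, adjusted p = 0.00570). Gas6, a ligand of the TAM receptor kinases, stood at 6.89, 10.0, 5.36 and 3.16 CPM against 50.0 and 67.4 CPM (log2 fold change -3.096, SE 0.34, adjusted p = 0.006197). Cavin2, a coat protein of caveolae, stood at 4.27, 5.62, 5.16 and 8.85 CPM against 28.6 and 37.2 CPM (log2 fold change -2.54, SE 0.25, adjusted p = 0.00496). In each of the 3 the groups did not overlap, which their choice from the calls makes likely and which is no further support. Of the 26 tested genes of extracellular matrix and adhesion 7 lay above 0, with a median of -0.24, and edgeR called 0, DESeq2 called 1 and 7 had an unadjusted p below 0.05.

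Much of this difference went with cluster 7. When that cluster was left out, an alternative chosen after its make-up was seen and run for no other cluster, 26 genes were called, 23 of them among the original 42. Tmem108, Gas6 and Cavin2 were no longer called, and their log2 fold changes moved to -0.51, -0.80 and -0.71. Smoc2, a matrix protein, moved from -2.11 to -0.91 and was no longer called. Snrpn, Asb4, H13, Cyba and the endoderm genes named above remained among the calls, the endoderm-rich cells being still included here. Inside the cluster Gas6 stood at 212 and 282 CPM and Cavin2 at 124 and 130 CPM, whereas among the other WT host members they stood at 15.3 and 5.38 CPM and at 8.07 and 10.3 CPM.

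Wnt2, a secreted ligand of the allantois and yolk sac mesoderm, was the called member of the Wnt list. It stood at 23.8, 29.9, 34.4 and 37.3 CPM in Tet-TKO members and at 73.8 and 84.4 CPM in WT host members (log2 fold change -1.37, SE 0.16, adjusted p = 0.00746). Without cluster 7 the difference was -1.19 and Wnt2 was no longer called, at 23.79, 29.76, 34.35 and 37.28 CPM against 63.75 and 75.72 CPM. Among cells of cluster 3 alone, in 3 Tet-TKO and 2 WT host libraries, the difference was 0.25 in the other direction, without a call. No other alternative reversed it. The Wnt list had 23 tested genes with a median of -0.09.

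The promoters of Wnt2, Gas6 and Cavin2, picked from the genes called lower, are shown because TET enzymes act on CpG sites. The 3 genes did not move together: without cluster 7 Gas6 and Cavin2 went to -0.80 and -0.71, and Wnt2 to -1.19. A link between these sites and the lower levels was not tested. They are RefSeq sequences of GRCm38.p6, from 250 bases before to 50 bases after the transcription start, 5′ to 3′ on the strand of the gene, with each CG in capitals. Wnt2 lies at chr6:18030396-18030695 on the minus strand, Gas6 at chr8:13494486-13494785 on the minus strand and Cavin2 at chr1:51288876-51289175 on the plus strand.
Wnt2: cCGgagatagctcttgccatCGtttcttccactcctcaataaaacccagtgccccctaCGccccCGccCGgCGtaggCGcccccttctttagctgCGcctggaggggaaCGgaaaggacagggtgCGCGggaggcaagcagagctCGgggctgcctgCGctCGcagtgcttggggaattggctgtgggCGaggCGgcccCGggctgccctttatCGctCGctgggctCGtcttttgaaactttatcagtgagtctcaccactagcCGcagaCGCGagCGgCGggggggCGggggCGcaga
Gas6: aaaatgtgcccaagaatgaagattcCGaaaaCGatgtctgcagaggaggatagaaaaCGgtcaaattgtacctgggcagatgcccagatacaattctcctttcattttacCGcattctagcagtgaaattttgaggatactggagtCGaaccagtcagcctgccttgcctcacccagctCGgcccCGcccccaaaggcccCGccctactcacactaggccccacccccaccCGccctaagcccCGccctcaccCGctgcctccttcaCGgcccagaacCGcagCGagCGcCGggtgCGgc
Cavin2: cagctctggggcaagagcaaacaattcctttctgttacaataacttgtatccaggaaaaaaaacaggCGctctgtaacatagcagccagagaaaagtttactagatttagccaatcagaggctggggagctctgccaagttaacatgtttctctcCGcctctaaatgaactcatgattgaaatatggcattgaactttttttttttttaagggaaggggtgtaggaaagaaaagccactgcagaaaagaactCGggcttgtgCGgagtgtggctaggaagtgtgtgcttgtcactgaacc
They hold 27, 17 and 4 CG pairs, and 15.5, 31.4 and 68.6% of 32851 RefSeq promoters of this length hold at least as many, around a median of 7. Methylation of these windows was not analysed here, and the counts say nothing of it. The authors, in separate methylation data, placed TET-dependent demethylation at distal regulatory elements and saw negligible effects at promoters.

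Signalling genes around the members' own ligand did not pass the test. Of the BMP pathway, 0 of 9 tested ligands and inhibitors, 0 of 9 receptors and Smads and 0 of 13 target genes were called by edgeR, with medians of -0.33, 0.10 and -0.05. An unadjusted p below 0.05 was found for 3, 0 and 2 of them, and DESeq2 called 0 in each list. Id1, a direct BMP target, stood at 466, 380, 395 and 423 CPM against 347 and 298 CPM (log2 fold change 0.35, adjusted p = 0.380). Bmp2 stood at 27.0, 41.0, 25.8 and 24.96 CPM against 49.4 and 67.7 CPM (log2 fold change -0.96, adjusted p = 0.142). The Hedgehog list had 0 called of 10, 3 with an unadjusted p below 0.05 and 0 called by DESeq2, and Ptch1, the Hedgehog receptor and target, stood at 89.0, 95.6, 146 and 119 CPM against 68.4 and 62.6 CPM (adjusted p = 0.104).

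Streak genes lay mostly on the higher side in Tet-TKO members without a call. Of the 16 tested streak and nascent mesoderm genes 14 had a positive log2 fold change, with a median of 0.74, and edgeR called 0, while 6 had an unadjusted p below 0.05 and DESeq2 called 2. Fgf8, a growth factor of the streak, stood at 96.0, 68.1, 79.4 and 82.8 CPM against 34.3 and 15.4 CPM, and missed the threshold (log2 fold change 1.67, SE 0.31, adjusted p = 0.0395). T stood at 48.7, 33.0, 45.1 and 30.3 CPM against 21.9 and 6.10 CPM (log2 fold change 1.43, adjusted p = 0.204). For both genes the groups did not overlap, but the share of all tested genes without overlap was not counted. Cluster 2, where these genes were highest, held a larger share of the Tet-TKO members. The 13 tested genes of yolk sac mesothelium and mesenchyme lay the other way, with 3 above 0, a median of -0.90 and 0 called by edgeR, while 8 had an unadjusted p below 0.05 and DESeq2 called 2. Of 13 haemato-endothelial genes 2 lay above 0, edgeR called 0 and DESeq2 3, and 3 had an unadjusted p below 0.05. Among 33 Hox genes 24 lay above 0 with a median of 0.28, 7 had an unadjusted p below 0.05, and both edgeR and DESeq2 called 0.

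Whether the genotype differences were the same in members as in other cells with Foxf1 was tested as an interaction, with library as a block. The other cells had at least 1 UMI of Foxf1 and did not meet the rule, and numbered 11110 at E8.5. For 33 of 16076 genes (0.205%) the genotype effect differed, 4 being more positive in members (0.0249%) and 29 more negative (0.180%). Tmem108 was 1.52 lower on the log2 scale in Tet-TKO members, while in the other cells it stood at 43.8, 48.9, 44.6 and 44.0 CPM in Tet-TKO and at 40.7 and 53.1 CPM in WT host libraries (difference of effects -1.49, SE 0.10, adjusted p = 1.56e-05). It was the gene called in every fit with 1 library left out, among which the number of calls was 2 without WT host library 1, 8 without WT host library 2 and 62 without Tet-TKO library 4.

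Postn, a matrix protein of mesenchyme, stood at 2.96, 9.49, 3.77 and 16.4 CPM in Tet-TKO members against 34.1 and 75.8 CPM in WT host members. In the other Foxf1-positive cells it stood at 9.18, 23.1, 34.3 and 34.6 CPM against 16.6 and 42.3 CPM, where the groups overlapped (difference of effects -2.57, SE 0.29, adjusted p = 0.000689). Zfp469, Ccn4, Cbln1 and Mab21l2 were the other leading negative genes, with differences of -2.66, -2.54, -2.38 and -2.06. The positive genes were Mixl1, Cdx4, Hoxaas3 and Evx1, at 1.87, 1.23, 1.22 and 1.13. Mixl1, Cdx4 and Evx1 belong to the streak list, all 18 of whose genes had a positive difference, with a median of 0.68 against 0.00 for all genes. Cdx4, a caudal homeobox gene, stood at 91.0, 83.8, 149 and 97.0 CPM against 96.3 and 107 CPM in members, where the groups overlapped, and in the other cells at 41.3 to 50.4 CPM against 91.4 and 120 CPM. Hoxaas3 is antisense to HoxA genes, with which its reads can be confused.

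Without cluster 7, 1 of the 33 genes was called, Xist. All 28 other negative genes moved towards 0, their median going from -1.32 to -0.46, and Postn went to 0.67 and Gas6 to 0.98. The cluster, almost all WT host, was taken out of the members only, and the other Foxf1-positive cells were kept whole. Its WT host cells held Postn at 180.5 and 306.6 CPM. For genes high in the cluster a move towards 0 was thus fixed in advance and is a description only. The 4 positive genes stayed above 0 at 0.90 to 1.57, none of them called.

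**Figure D4:**
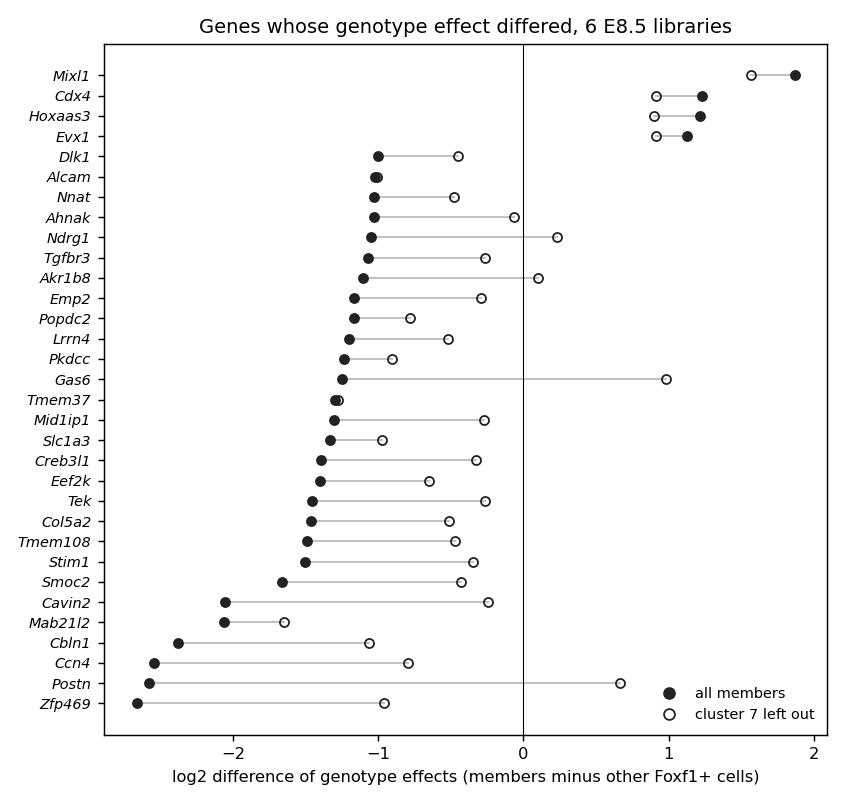
Difference between the genotype effect in members and in other Foxf1-positive cells, on the log2 scale, for the called genes other than Xist, over 6 E8.5 libraries. Filled circles are all members and open circles are members without cluster 7, with the other Foxf1-positive cells kept whole in both. The open circles of all 28 negative genes lie nearer to 0, those of 4 genes on its other side.

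Sex chromosome genes and copies of other genes were among the calls. Xist, the RNA that coats the inactive X chromosome, stood at 0.414, 1.43, 0.596 and 0 CPM in Tet-TKO members and at 246 and 267 CPM in WT host members. The Y-linked genes Eif2s3y and Ddx3y were also lower, at 1.26 to 3.102 and 1.58 to 2.83 CPM against 16.6 and 19.6 and against 11.5 and 18.6 CPM. Rps3a1, Rps13-ps1 and Gm8730 have near-identical copies or are such copies, so their counts are uncertain, Rps3a1 standing at 234 to 427 CPM against 4026 and 4465 CPM.

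Members were next set against cells that had Hand1, Bmp4 and Foxf1 but that the rule left out. The 3128 E8.5 cells with Hand1, Bmp4, Foxf1 and Tbx4 differed from members in 562 of 12196 genes (4.61%), 367 higher in members (3.01%) and 195 lower (1.60%), with library as a block. Cells were parted by Tbx4 itself, so genes that vary with Tbx4 go with that choice, and the Tbx4-positive cells could also hold Lum, Tdo2 and Osr1, which stood at 5.04 ± 3.84, 2.12 ± 1.10 and 12.9 ± 5.51 CPM in them. Posterior Hox genes were lower in members: Hoxa10 stood at 24.02 ± 11 CPM (SD, n = 6) against 98.9 ± 11.9 CPM (log2 fold change -2.02, SE 0.17), Hoxa11 at 7.91 ± 2.30 against 43.8 ± 8.34 CPM (-2.33, SE 0.15) and Hoxa13 at 4.67 ± 2.16 against 21.1 ± 2.43 CPM (-2.04, SE 0.19). Each was lower in members in all 6 libraries. Hoxb1, an anterior Hox gene, was higher, at 31.1 ± 6.18 against 4.53 ± 1.30 CPM (2.67, SE 0.19). Of 34 tested Hox genes 4 were higher and 9 lower.

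Streak genes were higher in members than in Tbx4-positive cells, 9 of 14 being called higher and 1 lower, with a median of 1.18 against 0.00 for all genes. Fgf8 stood at 62.7 ± 31.2 CPM against 13.6 ± 5.75 CPM (2.15, SE 0.15) and T at 30.9 ± 15.6 against 6.98 ± 4.50 CPM (2.15, SE 0.19). Among the members both were highest in cluster 2. Fgf8 stood at 263 CPM there and at 19.97 CPM in the other members, and T at 135 and 9.33 CPM. The comparison was not run without cluster 2, so the higher values need not hold for the other members. Snai1, a repressor of epithelial genes, was the lower member of that list, at 40.2 ± 9.62 against 107 ± 23.0 CPM. Wnt genes followed, with 8 of 23 higher and 1 lower: Wnt3a and Notum were higher by 2.91 and 2.63, and Sfrp1, a Wnt inhibitor, was lower by 1.68. Of the retinoic acid list 4 of 12 were higher.

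The imprinted genes Cdkn1c and Phlda2, which restrain growth, were lower in members than in Tbx4-positive cells. Cdkn1c, a cell cycle inhibitor, stood at 564 ± 150 CPM against 1989 ± 577 CPM (-1.84, SE 0.11), and Phlda2 at 973 ± 415 against 2975 ± 542 CPM (-1.74, SE 0.14). These means mix unlike members: in cluster 4 the 2 genes stood at 1776 and 2833 CPM, and in the other members at 324 and 787 CPM. Of 33 tested imprinted genes 2 were higher and 5 lower. By the rule for named genes, the leading higher genes were Myh7, Tac2, Vwc2, Tnnt2, Ppp2r2b and Ramp1, at 3.29 to 2.98, and the leading lower ones Chrna3, Coro2a, Nupr1, Pyy, Hoxc11 and Ngfr, at -3.47 to -2.42. Myh7, a cardiac myosin, ranged from 2.86 to 185 CPM in members against 0 to 5.80 CPM and was higher in 5 of 6 libraries, the cardiomyocyte-like cells of cluster 5 being among the members.

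The 2293 E8.5 cells with Lum, Tdo2 or Osr1 and no Tbx4 were compared with the members in the same way. Here 202 of 11978 genes differed (1.69%), 68 higher in members (0.568%) and 134 lower (1.12%), and the count fell to 100 without Tet-TKO library 2 and to 108 without Tet-TKO library 1. With every cell thinned to 10000 UMIs, 201 genes differed here and 266 against the Tbx4-positive cells. Both comparisons use the same members, so their values are only set side by side. Hoxa10, Hoxa11 and Hoxa13, which were below the Tbx4-positive cells, were above these cells, which stood at 6.42 ± 2.48, 1.21 ± 0.400 and 1.06 ± 0.396 CPM (log2 fold changes 2.003, 2.78 and 2.14). The members were mixed here too, with Hoxa10 at 81.1 CPM in cluster 4 and at 21.6 CPM in the other members. Hoxa11os is antisense to Hoxa11 and its higher value is uncertain for that reason. Fgf8 was again higher in members, against 24.1 ± 12.04 CPM (1.39, SE 0.06). Outside cluster 2, however, the members held Fgf8 at 19.97 CPM in a sum over libraries, which is not above these cells.

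Genes from the mesothelium and mesenchyme list were lower in members than in the cells with Lum, Tdo2 or Osr1. Cells were parted by Lum, Tdo2 and Osr1 themselves, so genes that vary with them go with that choice. Dcn, a small proteoglycan, stood at 3.82 ± 1.55 CPM in members against 28.6 ± 9.57 CPM (-2.93, SE 0.13), and Col3a1, a fibrillar collagen, at 33.9 ± 24.7 against 172 ± 130.4 CPM (-2.36, SE 0.12). Postn stood at 23.8 ± 27.9 against 102 ± 48.9 CPM (-2.50, SE 0.33). Of 14 tested genes of mesothelium and mesenchyme 6 were lower and 0 higher, with a median of -0.71 against 0.01 for all genes, Lum, Tdo2 and Osr1 not being counted. Col6a1, 1 of the 6, was called in none of the fits with 1 library left out. Cdkn1c and Phlda2, which were below the Tbx4-positive cells, were above these cells, which stood at 236 ± 46.2 and 479 ± 232 CPM (1.24, SE 0.10 and 1.05, SE 0.09), higher in members in all 6 libraries. Outside cluster 4, which these 2 genes led, the members stood at 324 and 787 CPM. Of the 26 genes of extracellular matrix and adhesion Col5a2 was lower and Epcam higher, and no other was called, with a median of -0.30. Hhip, an inhibitor of Hedgehog ligands, was lower at 1.40 ± 0.672 against 9.04 ± 3.05 CPM, and so was the co-receptor Boc, making 2 of 12 Hedgehog genes. Colec10, a secreted collectin, led the lower genes at -3.87, followed by Tslrn1 at -3.11 and, after Dcn and Hhip, by Bco1 at -2.57. Sprr2a3, Fabp3 and Esrp1, the last a splicing factor of epithelia, completed the leading higher genes at 2.55, 2.09 and 2.06.

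**Figure D5:**
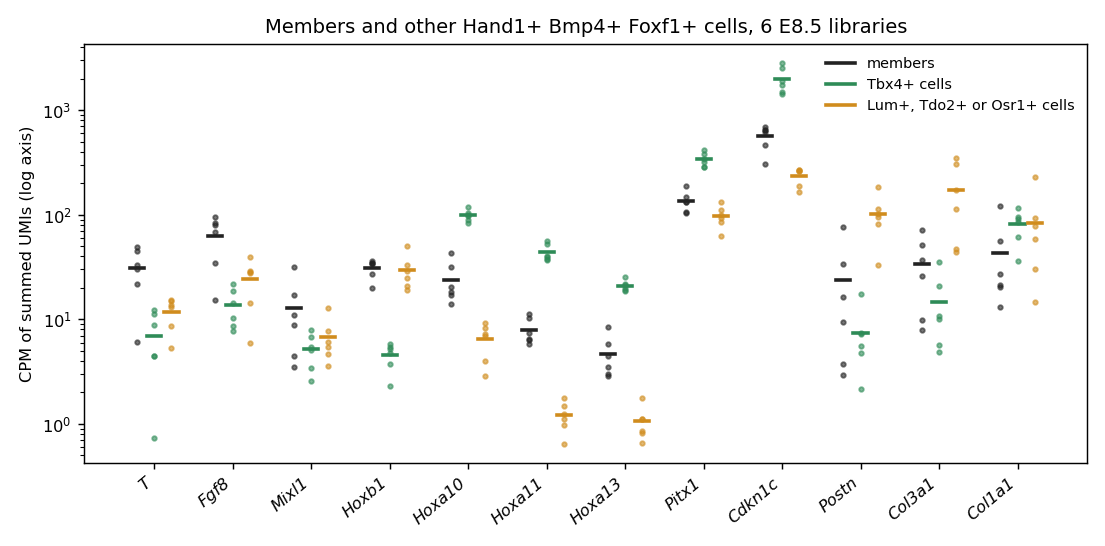
CPM of summed UMIs, on a log axis, in members (black), Tbx4-positive cells (green) and cells with Lum, Tdo2 or Osr1 (ochre), with 1 point for each of 6 E8.5 libraries and a bar at the mean. Hoxa10, Hoxa11 and Hoxa13 have means of 24.02, 7.91 and 4.67 CPM in members, between the 2 other groups. The members are mixed, with Hoxa10 at 81.1 CPM in cluster 4 and at 21.6 CPM in the other members.

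At E7.5 the members of 1 Tet-TKO and 1 WT host library were compared as values, with exact 95% Poisson intervals that cover counting error only and no replicate check. A log2 ratio over 1 in size was found in 352 of 11020 genes (3.19%), 125 upward (1.13%) and 227 downward (2.06%). Fgf8 stood at 159 CPM (153 to 164) in Tet-TKO members and at 43.8 CPM (38.8 to 49.3) in WT host members. Mixl1 stood at 77.0 CPM (73.4 to 80.9) against 25.1 CPM (21.4 to 29.3), and T at 135 CPM (130 to 140) against 70.5 CPM (64.1 to 77.3). Cdx4 went the other way, at 35.3 CPM (32.8 to 38.0) against 63.6 CPM (57.6 to 70.1). Of 17 streak genes 4 were above a log2 ratio of 1 and 1 below -1, with a median of 0.39 against -0.06 for all genes.

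Genes that separated the genotypes at E8.5 were read at E7.5 as follows. Wdfy1 stood at 47.0 against 6.86 CPM, Snrpn at 210 against 97.5 CPM and Asb4 at 11.2 against 41.8 CPM, with intervals that did not overlap. Tmem108 stood at 14.0 CPM (12.4 to 15.7) against 30.2 CPM (26.1 to 34.8), Gas6 at 3.33 CPM (2.59 to 4.204) against 11.5 CPM (9.06 to 14.5) and Ccn4 at 0.190 CPM (0.0518 to 0.487) against 3.27 CPM (2.03 to 5.00). Wnt2 stood at 15.8 CPM (14.2 to 17.6) against 15.3 CPM (12.4 to 18.6), so that no difference was detectable. Postn had 2 and 3 UMIs in the 2 libraries. Acta2 and Tagln, which led cluster 7 at E8.5, stood at 22.4 against 80.4 CPM and at 23.6 against 116 CPM.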

How the data were processed

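Single-cell RNA-seq libraries (10x Genomics 3' v3) were made from flow-sorted, DAPI-negative cells of pooled chimeric embryos. The authors used Cell Ranger and the mm10 build, and the deposited values are raw UMI counts of each gene in each barcode, without normalization and with tdTomato among the 55422 features. The deposited barcodes already had at least 500 UMIs. The members and gene lists were chosen with earlier results of these data known, and the leading genes named follow a rule of largest change among calls.

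Counts were summed over the members of each library, since cells are not replicates, and tested with edgeR 4.0.16 in R 4.3.3 (filterByExpr, TMM, quasi-likelihood F-test, Benjamini-Hochberg over all genes tested). A gene was called at adjusted p below 0.01 and an absolute log2 fold change of at least 1. The genotype test used the 4 and 2 libraries at E8.5. Tests between cell groups and the interaction used 2 sums a library with library as a block, and the 7 rule genes were left out. The share of members was compared with an exact permutation test over libraries. CPM are counts scaled to a total of 1e+06 UMIs over the summed cells. Scripts were tested on simulated data. Clusters were found with scanpy 1.11.5 and leidenalg 0.10.2 (1500 variable genes, 20 components, 15 neighbours, resolution 0.5). Doublets were kept, and in an alternative the highest Scrublet scores were removed, 0.8% of barcodes for each 1000 in a library. That alternative called 41 genes between genotypes, 28 of them among the original 42. Named alternatives are DESeq2 1.42.0, other filters, thinning, stricter rules and libraries left out. Reads shared by a gene and a near-identical copy are uncertain.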

Additional observations from a re-analysis of the deposited data

Results flagged for a closer look

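Within the 4 E8.5 Tet-TKO libraries, 6 of 56 tested groups of values had 1 library far from the other 3, where chance alone marks about 1 group in 20. Rps3a1 stood at 427.2 CPM in library 3 against 234.1 to 238.3 CPM, and 2810403D21Rik at 8.142 CPM in library 3 against 4.492 to 5.055 CPM. Apoa1 stood at 0.3159 CPM in library 4 against 0.9652 to 1.021 CPM, with a mean of 0.02128 UMIs over the 47 members of library 4. Cubn and Mrap stood at 0.1986 CPM in library 3 and at 0 in the others. Fgb stood at 0.1379 CPM in library 1 and at 0 in the others. The marks of Cubn, Mrap and Fgb follow from the zeros. With Apoa1 they rest on few UMIs, which leaves Rps3a1 and 2810403D21Rik.

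The genotype effect differed between members and other Foxf1-positive cells, by edgeR's interaction test with adjusted p below 0.01, in 9 named genes. On the log2 scale the effect in members was higher by 1.867 for Mixl1, 1.23 for Cdx4, 1.218 for Hoxaas3 and 1.126 for Evx1. The differences were -2.661 for Zfp469, -2.575 for Postn, -2.541 for Ccn4, -2.376 for Cbln1 and -2.058 for Mab21l2. Without WT host library 1 none of the 9 was called, and without cluster 7, which held 98 WT host and 3 Tet-TKO cells, none was called either.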

How the results depend on the processing

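The 42 genes called between genotypes depended on the settings. DESeq2 called 210 (48 higher, 162 lower), no filter on low counts 449, thinning to 10000 UMIs 72, no condition on Tbx4, Lum, Tdo2 and Osr1 91, summing Tet-TKO libraries by pair 23, and equal numbers of cells 20. Chosen after seeing the data, leaving out cardiac-rich cells gave 73 and leaving out cluster 7 gave 26. Clusters 2, 3, 4, 5 and 6 alone, also chosen then, gave 7, 45, 7, 14 and 190. Leaving out 1 library gave 3 to 33. Against Tbx4-positive cells, 562 calls became 951 without the filter, 266 with thinning (201 against cells with Lum, Tdo2 or Osr1) and 454 to 554 with 1 library left out. Against cells with Lum, Tdo2 or Osr1, 202 became 435 without the filter and 100 to 276 with 1 library left out. The 33 interaction calls became 128 without the filter, 59 without cardiac-rich cells, 1 without cluster 7 and 2 to 62 with 1 library left out. The difference in the share of members stayed positive, at 3 to 4.88 percentage points with 1 library left out. It was 2.35 with at least 2 UMIs of each gene and 2.37 with thinning to 5000 UMIs. It was 3.6 without haemoglobin-rich cells and 16.8 with no condition on the 4 genes. The cause of these shifts was not tested beyond the smaller numbers of cells or libraries.

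The labels share only replicate numbers between genotypes. The paired fit with the replicate number as a block called 299 genes. Same-numbered libraries deviated together with r of 0.215 and -0.0177 in the 2 pairs. With only 2 WT host libraries their deviations mirror each other, so these values cannot decide whether the numbers pair the samples. Under these alternatives, of the values of all genes called between genotypes and of those that the rule named in the other comparisons, 924 kept their direction and side of the threshold, 424 kept their direction but lost the call, and 2 reversed: Wnt2 in cluster 3 alone (0.25, adjusted p = 0.952) and Postn in the interaction without cluster 7 (0.67, adjusted p = 0.884). Over all 28 negative interaction genes other than Xist, 4 rose above 0 without cluster 7, Gas6 (0.98) among them. The number of cells limits what the 47 and 116 members of Tet-TKO libraries 4 and 3 can show.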
